A study of Homo sapiens with 4 samples.

Results

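The replication-dependent histone genes are the many small genes that supply the core histones H2A, H2B, H3 and H4 and the linker histone H1. They were taken as the RefSeq GRCh38 protein-coding genes named H2AC, H2BC, H3C or H4C with a number, or H1-1 to H1-6, which gave 70 of 20050 genes. A listed region belonged to them if it overlapped a gene span extended by 2 kb on both sides, and 53 of the 125986 listed regions did.

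Open chromatin was profiled in A375 cells by ATAC-seq, which tags accessible DNA with the Tn5 transposase. A375 is 1 established human melanoma line. The octanoate group received 1 mM of this medium-chain fatty acid for 48 h, and the vehicle group received isopropanol for 48 h, both in the same serum-containing medium. Each group had 2 libraries, 4 in all, and the labels do not say whether they came from separate cultures, so p-values measure only the spread between these libraries. The table gives a mean over all 4 libraries and a fold change for each region, and no value for a single library. The libraries' depths are unknown here. All 10 melanocytic and neural crest markers looked up, MITF, SOX10, PMEL and MLANA among them, had a listed region within 2 kb, as did all 4 epithelial and 2 of 3 blood markers, so the presence of a region did not tell cell types apart.

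Histone protein is needed in bulk when DNA is copied, and these genes are transcribed in S phase, mostly without introns and as mRNAs that end in a stem-loop instead of a poly(A) tail. Most lie in clusters, where NPAT and its partners gather at the histone locus body, and many H2A and H2B genes face away from each other across one short shared promoter. The H4 promoters carry an element called site II, which is bound by HINFP, and H2B promoters carry an octamer bound by POU2F1.

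The genes fell into 7 groups when neighbours closer than 300 kb were joined. Most of them lay in 3 stretches of chromosome 6: 34 genes between 25.73 and 26.29 Mb, 5 genes between 27.13 and 27.15 Mb, and 16 genes between 27.81 and 27.89 Mb. Another 11 genes lay on chromosome 1 between 149.78 and 149.89 Mb. The H2AC25 and H2BC26 pair lay at 228.46 Mb of chromosome 1, H4C16 at 14.77 Mb of chromosome 12 and H2BC12L at 43.57 Mb of chromosome 21. The median gene span was 494 bp, and 8 genes had annotated spans over 2 kb, which brought regions far from the start into the set.

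Promoter letters are shown for 4 head-to-head pairs and 4 single genes, chosen to cover the 5 families and the highest and lowest tested fold changes. They are RefSeq sequence of GRCh38.p14. The pairs are the plus-strand letters between both starts: H2BC21 to H2AC20 at chr1:149886683-149886917, H2AC25 to H2BC26 at chr1:228457874-228458102, H2BC11 to H2AC11 at chr6:27132796-27133042 and H2BC4 to H2AC6 at chr6:26123927-26124171. The single genes are the 200 bases before the start on the gene's own strand: H1-4 at chr6:26156129-26156328 (plus), H3C1 at chr6:26020251-26020450 (plus), H4C16 at chr12:14771132-14771331 (minus) and H4C5 at chr6:26204410-26204609 (plus). Capitals mark the TATA box letters TATAAA, the box CCAAT, the octamer core TTTGCAT and the site II core GGTCCG, each on either strand, with overlapping matches run together.
H2BC21 to H2AC20: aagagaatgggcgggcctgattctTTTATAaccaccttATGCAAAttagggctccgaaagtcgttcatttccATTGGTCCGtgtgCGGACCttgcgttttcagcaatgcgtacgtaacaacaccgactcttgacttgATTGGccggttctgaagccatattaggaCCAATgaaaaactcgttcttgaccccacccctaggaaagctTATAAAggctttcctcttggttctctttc
H2AC25 to H2BC26: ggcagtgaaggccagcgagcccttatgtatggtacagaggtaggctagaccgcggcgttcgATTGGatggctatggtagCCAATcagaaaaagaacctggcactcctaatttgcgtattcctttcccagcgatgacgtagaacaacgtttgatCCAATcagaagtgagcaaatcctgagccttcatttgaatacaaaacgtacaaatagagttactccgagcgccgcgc
H2BC11 to H2AC11: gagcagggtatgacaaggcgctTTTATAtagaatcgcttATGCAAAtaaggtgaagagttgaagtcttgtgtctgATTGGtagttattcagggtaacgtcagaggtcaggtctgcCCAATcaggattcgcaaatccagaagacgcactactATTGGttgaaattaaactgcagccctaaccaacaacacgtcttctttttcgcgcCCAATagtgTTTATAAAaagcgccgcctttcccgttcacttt
H2BC4 to H2AC6: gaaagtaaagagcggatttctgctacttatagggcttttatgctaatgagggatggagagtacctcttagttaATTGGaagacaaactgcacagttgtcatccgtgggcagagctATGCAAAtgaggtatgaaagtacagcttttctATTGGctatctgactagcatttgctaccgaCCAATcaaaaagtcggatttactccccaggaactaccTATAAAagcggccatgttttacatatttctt
H1-4: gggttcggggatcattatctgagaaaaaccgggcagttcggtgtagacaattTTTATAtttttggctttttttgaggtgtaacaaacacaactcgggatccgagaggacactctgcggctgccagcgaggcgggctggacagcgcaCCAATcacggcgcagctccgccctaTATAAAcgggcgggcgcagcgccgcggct
H3C1: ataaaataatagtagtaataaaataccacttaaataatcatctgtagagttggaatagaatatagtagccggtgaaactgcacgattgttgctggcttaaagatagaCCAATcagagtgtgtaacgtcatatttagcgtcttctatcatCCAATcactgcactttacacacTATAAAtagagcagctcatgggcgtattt
H4C16: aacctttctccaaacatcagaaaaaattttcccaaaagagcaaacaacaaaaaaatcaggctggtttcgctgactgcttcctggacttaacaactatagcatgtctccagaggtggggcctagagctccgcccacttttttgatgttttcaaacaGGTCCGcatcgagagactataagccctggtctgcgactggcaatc
H4C5: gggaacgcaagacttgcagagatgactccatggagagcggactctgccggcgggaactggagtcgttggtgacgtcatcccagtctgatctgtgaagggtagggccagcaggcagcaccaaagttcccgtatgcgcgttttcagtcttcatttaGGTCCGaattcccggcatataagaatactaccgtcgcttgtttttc

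The families differed in these letters. In the 250 bases before the start, CCAAT or its complement ATTGG stood in all 51 windows of H1, H2A, H2B and H3 genes and in 3 of 13 H4 windows, against 34.1% of 15843 protein-coding promoters. GGTCCG or CGGACC was found in 12 of 13 H4 windows, in 1 window each of the H2A, H2B and H3 families and in 12.0% of all promoters. The octamer core TTTGCAT or ATGCAAA was in 14 of 18 H2B and 11 of 16 H2A windows, in 0 windows of the other families and in 3.44% of all promoters; paired H2A and H2B windows share most of their letters, so these counts are not independent. TATAAA or TTTATA was in 43 of 64 histone windows and in 9.50% of all promoters. A match is a description of letters and not a site of binding. Windows were at hand for 64 of the 70 genes; H4C1, H4C3, H2AC12, H3C11, H3C12 and H2BC12L are named only.

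**Figure D1:**
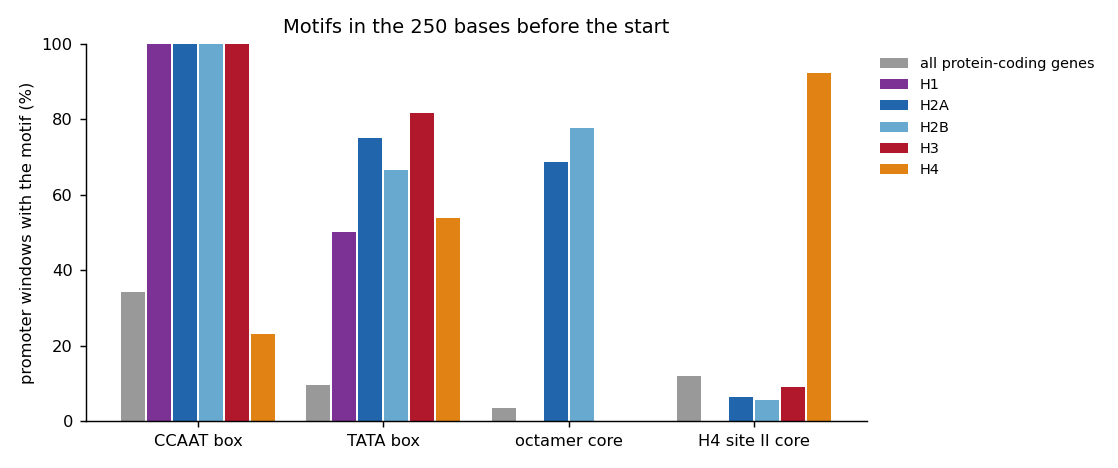
Share of promoter windows (250 bases before the start, in percent) that hold each motif on either strand, for all 15843 protein-coding promoters in grey and for the histone families in colour. The H4 bar stands at 92.3% for the site II core and at 23.1% for the CCAAT box, and the octamer core appears in H2A and H2B windows but in no H1, H3 or H4 window.

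Most of these genes had a listed region in A375 cells. Of the 70 genes, 61 had at least 1 listed region, and 56 of the 64 with a known start had a region within 1 kb of it (87.5%), against 74.9% of 15779 other protein-coding genes. These 56 include H3C14, H2AC18, H2AC19 and H3C15, whose start regions held under 1 normalized read per kb. With such regions left out on both sides, a choice made after seeing the data, the shares were 52 of 64 (81.2%) and 74.9%. The 9 genes with no listed region included H2AC1, H2BC1 and H1-6, which encode the testis histones, and H4C7, which encodes a divergent H4. The others were H2BC6, H3C11, H4C13, H4C14 and H2BC12L. By family, 5 of 6 H1, 16 of 17 H2A, 16 of 19 H2B, 12 of 13 H3 and 12 of 15 H4 genes had a region. Among genes with a known start, 5 of 6 H1, 15 of 16 H2A, 16 of 18 H2B, 11 of 11 H3 and 9 of 13 H4 genes had one within 1 kb of it. The share at starts was thus lowest for H4, and differences between families were not tested. The H4 genes without a start region included H4C14 and H4C15, whose windows were the same in 300 of 300 bases. The H2A and H3 counts hold the genes named above with under 1 read per kb.

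Regions at histone starts had a larger median width than those at other starts, and 18 of 42 lay within 1 kb of more than 1 histone start. The 42 regions within 1 kb of a histone start had a median width of 1720 bp and a median of 31.3 mean normalized reads per kb, against 1136 bp and 49.7 reads per kb at the starts of other protein-coding genes. Counting whole gene spans with 2 kb on both sides, 31 of the 53 regions reached more than 1 histone gene and none reached more than 3. Among genes with a known start, head-to-head H2A and H2B pairs numbered 11, with 193 to 247 bp between the starts. In 10 of them 1 region spanned both starts. The exception was the testis pair H2AC1 and H2BC1, where no region was listed. H2BC12 and H2AC12, which share a region, were not counted because H2AC12 had no known start.

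No tested histone region passed the authors' adjusted threshold for octanoate against vehicle. In the authors' deposited table, 0 of the 14 histone regions that the authors tested passed the threshold of 0.05 on the adjusted p (Benjamini-Hochberg, by DESeq2), beside 1.02% of all 11185 tested regions. At an unadjusted p under 0.05 in the authors' deposited table, 1 of the 14 was higher (7.14%, against 14.8% of tested regions) and 0 were lower (against 0.107%). Tested means that the authors' adjusted p covers the region, which was so from a mean of 63.8 normalized reads upward; 26.4% of histone regions and 8.88% of all listed regions reached it. In bulk libraries, fewer cells with an open promoter and less opening per cell cannot be told apart.

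The median log2 fold change, octanoate over vehicle, was 0.044 over the 53 histone regions and 0.23 over all listed regions. Over tested regions alone it was -0.0071 for the 14 histone regions and 0.19 for all 11185. Among the 14, 6 lay above 0 (42.9%), whereas 85.7% of all tested regions did. In 10 of the 14 histone regions the change was under 0.1 in either direction, whereas in 74.0% of tested regions it was 0.1 or more. This limit of 0.1 was not varied. The regions of H2BC4, at -0.10 when rounded, and of H2BC21, at 0.094, lay just under it in size, so the count of 10 depends on it. No test of this difference in medians was made, because the table holds no value per library. Taken one region at a time, each of the 14 intervals of 95% from the authors' standard errors (SE) held the tested median of 0.19, and 13 held 0; these intervals describe single regions and not the medians.

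**Figure D2:**
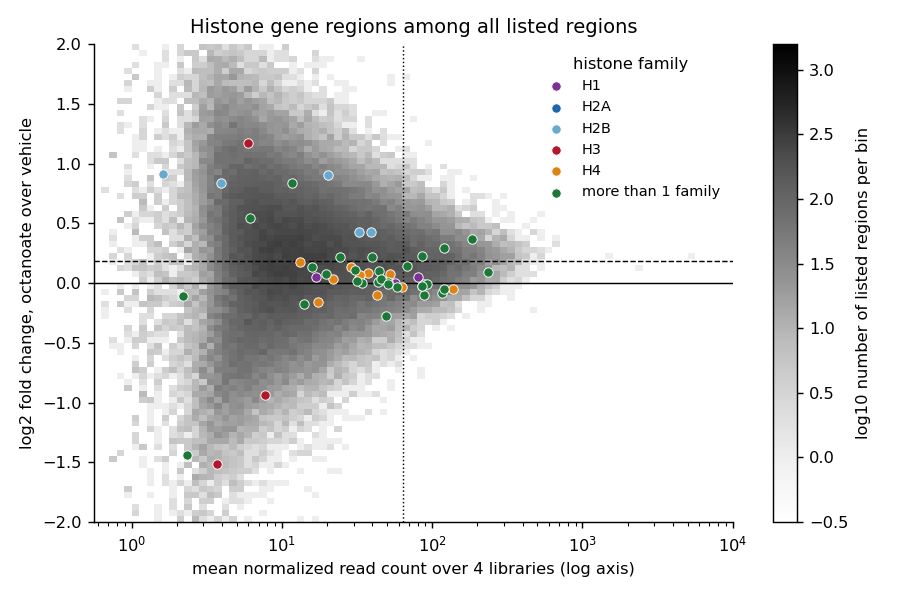
Log2 fold change (octanoate over vehicle) against the mean normalized read count on a log axis. Nuclear listed regions are the grey density and the 53 histone regions the coloured points by family. Listed regions beyond the drawn range of log2 fold change are not shown. The solid line is 0, the dashed line the tested median of 0.19 and the dotted line the lowest tested mean of 63.8; histone points to the right of the dotted line lie between -0.10 and 0.37.

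The linker histone H1 compacts nucleosome arrays by binding at the DNA entry and exit sites. Its most strongly covered region, at chromosome 6 from 26156130 to 26158648, served H1-4 and the neighbouring start of H2BC5. It had a mean of 120.7 normalized reads and, in the authors' deposited table, a log2 fold change of 0.29 with an SE of 0.19 (adjusted p 0.473), the second highest of the 14. The region of H1-2 (26054512 to 26056692) had 0.047 with a standard error of 0.23 in the authors' deposited table. H1-1 and H1-3, below the tested range, had log2 fold changes of 0.047 and 0.0038 in the authors' deposited table, and the region shared by H1-5 and H2AC16 had 0.035. All 5 H1 start regions thus lay above 0 as deposited, all but that of H1-4 within 0.05 of it, and after the tested median was subtracted that of H1-4 alone did.

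H2A and H2B form the dimers that flank the central tetramer of the nucleosome. Of the 14 tested regions, 8 spanned a head-to-head pair of H2A and H2B genes with known starts. Their median log2 fold change was -0.015, with 3 of 8 above 0. The one region with an unadjusted p under 0.05 was the pair H2AC25 and H2BC26 at chromosome 1 from 228457107 to 228459624. Its mean was 183.1 normalized reads and its log2 fold change 0.37 (standard error 0.16, 95% interval 0.058 to 0.67, p 0.0198, adjusted p 0.230) in the authors' deposited table. Relative to the tested median this was 0.18, and the p after centring on that median was 0.255. In the letters between these starts, neither TATAAA nor the octamer core was found, unlike in the H2BC21, H2BC11 and H2BC4 promoters printed above. Other windows lacked them too, since the octamer core was in 14 of 18 H2B and 11 of 16 H2A windows. TATAAA or TTTATA was in 12 of 18 and 12 of 16. A link between these letters and the fold change was not tested.

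The highest mean of all histone regions belonged to H2BC21, H2AC20 and H2AC21 (chromosome 1, 149885339 to 149888882). Their shared region had 234.9 normalized reads, 66.3 per kb, and, in the authors' deposited table, a log2 fold change of 0.094 with an SE of 0.14 (adjusted p 0.788). At the other end, the H2BC4 and H2AC6 region (chromosome 6, 26122492 to 26124560) had the lowest tested value in the authors' deposited table, -0.10 with an SE of 0.23 (adjusted p 0.871). The H2BC11 and H2AC11 region (27131520 to 27134690) followed with -0.083 (standard error 0.20), again in the authors' deposited table. The intervals of the highest region, H2AC25 (0.058 to 0.67), and of the lowest, H2BC4 (-0.55 to 0.35), overlapped.

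The other tested pair regions lay between those values. H2BC8 and H2AC8 had -0.0039 (standard error 0.22), H2AC15 and H2BC15 had -0.025 (0.23), and H2AC17 and H2BC17, with H3C12 in reach, had -0.051 (0.19), in the authors' deposited table. The region of H2BC13 and H2AC13, with H3C10 in reach, had 0.14 (0.25) in the authors' deposited table. H2BC12 and H2AC12, also side by side, shared a region with -0.010 (0.22) in the authors' deposited table. The pair regions just below the tested range were H2AC14 and H2BC14 with 0.0063 and H2AC7 and H2BC7, with H3C4, at -0.28 (standard error 0.30), in the authors' deposited table.

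**Figure D3:**
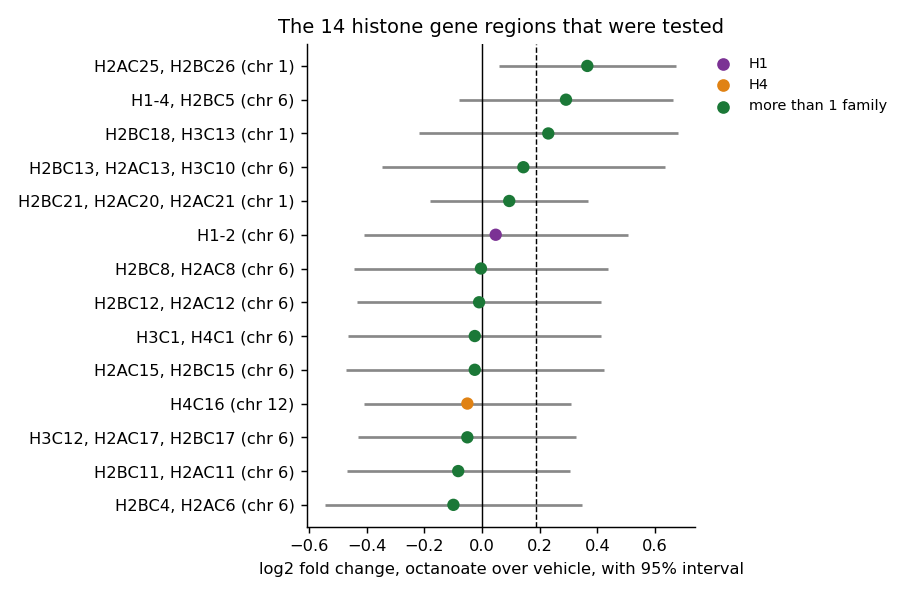
Log2 fold change (octanoate over vehicle) with its 95% interval from the authors' standard error for the 14 tested histone regions, each labelled by every histone gene within 2 kb and its chromosome, and coloured by family. The solid line is 0 and the dashed line the tested median of 0.19; every interval crosses the dashed line and that of H2AC25 and H2BC26 alone stays above 0.

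H3 and H4 make up the tetramer at the centre of the nucleosome. The region of H3C1 and H4C1 (chromosome 6, 26020174 to 26022479) had a mean of 85.6 normalized reads and, in the authors' deposited table, a log2 fold change of -0.025 with an SE of 0.22 (adjusted p 0.971). H3C13, next to H2BC18 on chromosome 1, shared a region (149811675 to 149813895) with 0.23 (standard error 0.23, adjusted p 0.670) in the authors' deposited table. These were the tested regions at H3 starts. Over all 15 start regions of H3 genes the values ran from -1.44 to 0.83 in the authors' deposited table. The lowest was at H3C14, with a mean of 2.35 normalized reads. The highest, with a mean of 11.7 and an SE of 0.62, held the start of H2BC9 and lay within 1 kb of that of H3C7. The region over the H3C7 start itself had 0.14 in the authors' deposited table. The median of the 15 regions was 0.0044, and 8 of the 15 lay above 0. The second lowest, at H3C6, had -0.93 (standard error 0.78, mean 7.67) in the authors' deposited table, while the stronger region of that gene (mean 32.4) had 0.044. H3C2, H3C3 and H3C10, with means of 30.7 to 44.2, had 0.10, 0.0044 and 0.11 in the authors' deposited table.

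H4C16, the only one of the 70 genes on chromosome 12, had the highest signal per length of all histone regions, 75.3 normalized reads per kb. Its region (14769617 to 14771445) had, in the authors' deposited table, a log2 fold change of -0.051 with an SE of 0.18 (adjusted p 0.925). H4C5 stood just under the tested range, at a mean of 63.2, with -0.030 (standard error 0.27) in the authors' deposited table. Over the 9 start regions of H4 genes the values ran from -0.16 at H4C11 to 0.14 at H4C6 in the authors' deposited table. The median of the 9 regions was 0.038. Each of these 9 was within 1 standard error of 0. Their median standard error was 0.37, which is larger than the tested median log2 fold change of 0.19.

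Differences between the families were not tested. Medians over start regions were 0.047 for H1 (5 regions), -0.0039 for H2A (15), 0.094 for H2B (17), 0.0044 for H3 (15) and 0.038 for H4 (9), and a region serving several families counts in each. In tested start regions alone they were 0.17 for H1 (2 regions), -0.015 for H2A (8), -0.0039 for H2B (11), 0.10 for H3 (2) and -0.051 for H4 (1). Values above 0 were seen in 5 of 5 H1, 7 of 15 H2A, 10 of 17 H2B, 8 of 15 H3 and 5 of 9 H4 start regions. All 5 medians over start regions, tested or not, lay below 0.14. This was the median over the 11990 regions at the starts of other protein-coding genes, of which 75.6% were above 0. The 42 histone start regions together had a median of 0.014, and 59.5% of them were above 0. Their median was -0.0071 in the 14 tested ones and 0.035 in the 39 with a mean of at least 10. The 11 remaining histone regions had a median of 0.43 and a median standard error of 0.58, and none of them was in the tested range. Of these, 2 cover the whole of a gene with no known start, H4C3 with 0.086 and H3C12 with -0.0071 in the authors' deposited table. The other 9, among them stretches inside the long annotated spans of H2BC18, H2BC4 and H2BC5, lay over 1 kb from any known histone start and had a median of 0.54 and a median standard error of 0.88. The highest of these with a mean of at least 10 lay inside H2BC4 (chromosome 6, 26118852 to 26119378), with 0.91 (standard error 0.48, p 0.0581) in the authors' deposited table; it is named after its value was seen.

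**Figure D4:**
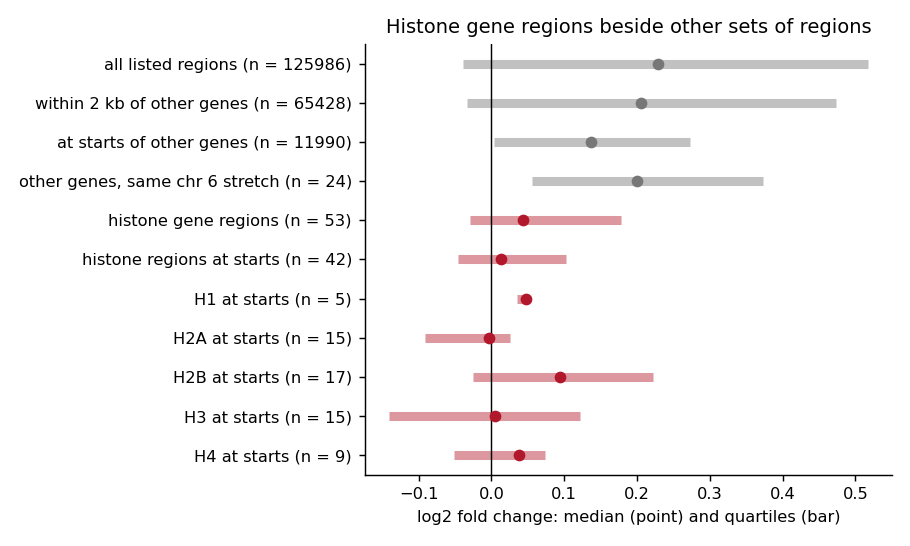
Median (point) and quartiles (bar) of the log2 fold change over sets of listed regions, other sets in grey and histone sets in red, with the number of regions in brackets. The medians of the red sets lie between -0.0039 and 0.094, and those of the grey sets between 0.14 and 0.23.

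Neighbours on the same chromosome stretch allowed a closer view. From the first to the last histone gene of chromosome 6, a stretch of 2.17 Mb, 20 other protein-coding genes lie between the histone genes, and 12 of them had a region at their start. The 24 non-histone regions within 2 kb of these genes had a median log2 fold change of 0.20, the 11 at their starts had 0.11, and the 82 regions over 2 kb from any protein-coding gene had 0.15. The 44 histone regions of chromosome 6 had 0.036, and all regions of the chromosome had 0.21. Only 1 neighbour region was in the tested range, that of HMGN4 with -0.15 (standard error 0.25, adjusted p 0.814) in the authors' deposited table. The neighbours were therefore known less precisely than the histone regions, with a median standard error of 0.50 against 0.34, and the difference was not tested.

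**Figure D5:**
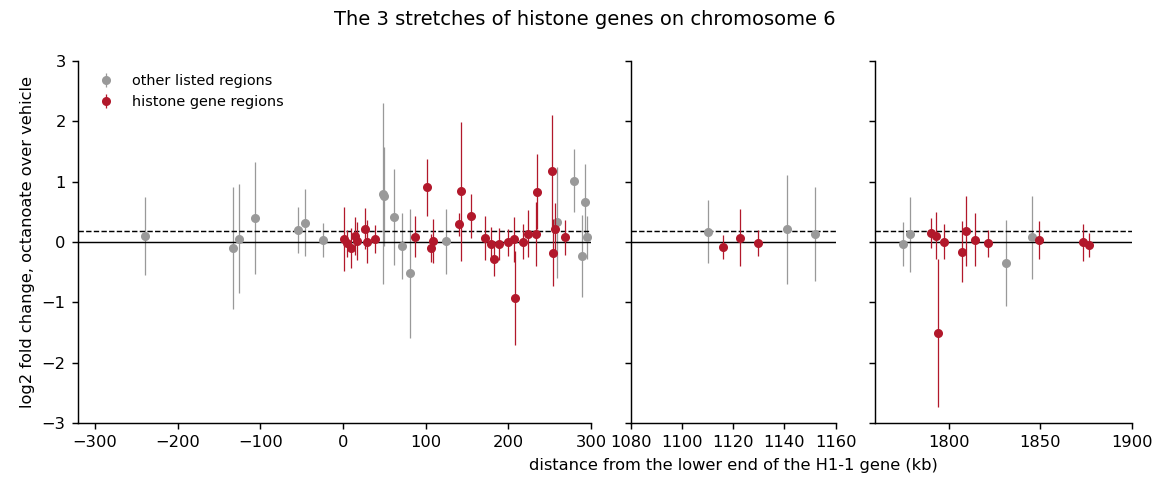
Log2 fold change (octanoate over vehicle) with the authors' standard error as bars, against distance in kb from the lower end of H1-1, for the 3 stretches of chromosome 6 that hold histone genes. Histone regions in red lie near the solid line at 0, and most are below the dashed line at the tested median of 0.19; the far points have wide bars, such as that beside H3C10 at -1.51 with a standard error of 1.23.

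On chromosome 1 near 149.8 Mb, the start regions of near-identical gene copies carried almost no reads. The windows of H4C14 and H4C15 from 250 bases before to 50 after the start were the same in 300 of 300 bases. Those of H2AC18 and H2AC19 shared an unbroken run of 299 bases, and those of H3C14 and H3C15 one of 296. The region of H3C14 and H2AC18 (149839881 to 149843490) was 3610 bp wide and had a mean of 2.35 normalized reads in the authors' deposited table. Its counterpart at H2AC19 and H3C15 (149850351 to 149853797) was 3447 bp wide with a mean of 2.20 in the authors' deposited table. At 0.65 and 0.64 reads per kb they stood far below the 66.3 of H2BC21 in the same cluster, and their log2 fold changes of -1.44 and -0.11 had standard errors of 1.64 and 1.70. H4C14 and H4C15 had no region at their starts. A further region, within 2 kb of H2AC18 and H4C15 but over 1 kb from their starts (149844171 to 149844387, 217 bp), had a mean of 6.10 or 28.1 per kb, near the 31.2 that was the median of all histone regions, and a log2 fold change of 0.54 with a standard error of 0.88 in the authors' deposited table. How reads that fit several places were treated is not given in the sources used here, so these 6 genes are uncertain.

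The genes that make and use histone mRNA were read from 3 lists, none of whose regions had an adjusted p under 0.05. The list of histone transcription and mRNA processing held 25 genes, 20 of which had a tested region. Of the 21 tested regions, 17 were above 0 (against 85.7% of all tested regions), with a median of 0.15, and 1 was higher at an unadjusted p under 0.05, where 14.8% of all tested regions were. This was NCBP1, a cap-binding protein, with 0.32 (standard error 0.15, p 0.0324) in the authors' deposited table. NPAT, the coactivator of the histone locus body, had 2 tested regions with 0.15 each (standard errors 0.24 and 0.16) in the authors' deposited table. HINFP had 0.25 (0.21), POU2F1 -0.025 (0.12), SLBP, which binds the stem-loop, 0.091 (0.23), and LSM11, a subunit of the processing particle, 0.27 (0.19), in the authors' deposited table.

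Variant histone genes, many of which are expressed outside S phase, had 9 tested regions with a median of 0.29, and 8 were above 0 (88.9%, against 85.7% of all tested regions). The one with an unadjusted p under 0.05 was H2AZ2, with 0.36 (standard error 0.18, p 0.0446) in the authors' deposited table, so that 1 of 9 passed beside the 14.8% of all tested regions. H2AX and H3-3A had 0.33 (0.19) and 0.29 (0.16), and H1-10 had -0.12 (0.20), in the authors' deposited table. Histone chaperones had 18 tested regions with a median of 0.10, of which 17 were above 0 (94.4%) and 0 had an unadjusted p under 0.05, beside the same 85.7% and 14.8%. NASP, a chaperone of H3 and H4, had 0.18 (0.17) in the authors' deposited table. These medians stood beside -0.0071 for the tested histone regions and 0.19 for all tested regions, and the differences between lists were not tested.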

How the data were processed

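ATAC-seq of 2 octanoate and 2 vehicle libraries was deposited as 1 table of the authors' DESeq2 comparison, with 0 columns per library. The deposited signal is a mean of normalized reads over all libraries, its log2 fold change has a standard error, its score is the Wald statistic, and its p-value is given raw and adjusted, per the file headers. The submitters' processing notes name hg38, Trim Galore, cutadapt, FastQC, Bowtie2, Picard, MACS2, featureCounts, DESeq2 and bedtools 2.29.1, with no settings; a Tn5 shift of reads, read filters and the scaling are not given in the sources used here.

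The deposited adjusted p equalled Benjamini-Hochberg adjustment over 11185 regions and was listed as 1 for the other 114801, which were treated as not tested. Region starts were counted from 1. Genes came from RefSeq GRCh38.p14, starts and letters from its promoter table (for genes with several starts, the first was searched for motifs). Intervals span 1.96 standard errors to either side. Centring subtracts the tested median and recomputes p. Values were computed with Python 3.11.15, pandas 2.3.3 and scipy 1.17.1, and the functions were tested on simulated data. Counts, medians and ranges are descriptions.

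Members and lists were chosen with earlier results of these data known. Regions were named if the adjusted p was under 0.1, if among the 5 highest or lowest tested log2 fold changes, if of highest mean in a family, or if outside the large clusters; further regions illustrate a family. Alternatives were the extension, the threshold, the adjustment, centring, filters on mean signal and subsets of members.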

Additional observations from a re-analysis of the deposited data

How the results depend on the processing

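The count of histone regions with an adjusted p under 0.05 was 0 under each of the 6 alternatives run (adjusted p under 0.1, centring on the tested median, extensions of 0 and 5 kb, and Benjamini-Hochberg over all regions or over those at or above the 25th percentile of mean signal). The count of 1 at an unadjusted p under 0.05 became 0 at p under 0.01 and 0 after centring. The median over histone regions, 0.044, was -0.0071 in tested regions and -0.19 after the median of all regions was subtracted; at starts, 0.014 became -0.0071 and -0.22. Over the other subsets and extensions the median ran from 0.036 to 0.047, and at starts from 0.012 to 0.035; no error of these medians could be had. The difference from other regions within 2 kb of protein-coding genes was -0.16, and stayed between -0.18 and -0.12. A minimum mean of 10 was chosen after seeing the data. Centring turned 3 of the 14 tested regions below 0, H2BC21 with -0.093, H2BC13 with -0.043 and H1-2 with -0.14, since the subtracted median exceeded them.

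No paired analysis was possible because single libraries have no values here, which also kept count tests, other normalizations and runs without a replicate from being made. The 39 untested histone regions had a median standard error of 0.39, at which an unadjusted p of 0.05 takes a log2 fold change of 0.76, against 0.22 and 0.43 for the 14 tested ones. The source of the low means of these 39 regions was not tested, and all regions come from the same 4 libraries.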

Other observations

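Both start regions at the near-identical H2A and H3 copies of chromosome 1 were low among wide regions. Of the 629 listed regions of 3 kb or more, whose median was 48.5 mean normalized reads per kb, 6 had under 1 read per kb. The region of H2AC19 and H3C15 ranked 2 and that of H3C14 and H2AC18 ranked 3 from the lowest. The other 4 histone regions of this width, those of H2BC21, H2BC11, H2AC15 and H2AC17, ranked 470, 176, 68 and 96. H4C11 and H4C12 on chromosome 6, whose windows were the same in 295 of 300 bases, had start regions with means of 17.5 and 21.9 normalized reads and log2 fold changes of -0.16 (standard error 0.50) and 0.038 (0.44) in the authors' deposited table. How the share of identical letters bears on these means was not tested.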
